A study of Homo sapiens with 4 samples.

Results

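The desmosome and plakin genes measured here are DSC2, DSC3, DSG2, DSG3, PKP1, PKP2, PKP3, JUP, DSP and PPL. These 10 genes were chosen by name, as the main building blocks of the desmosome together with the related plakin periplakin, out of 58825 gene rows. RNA was sequenced from LoVo cells, a human colon adenocarcinoma line that carries an uncleaved, constitutively active MET receptor. The control cells (MET+) kept this receptor and were labelled wild type and GFPCTR. The compared cells (MET-KO) had the MET gene targeted by CRISPR/Cas9, and each condition had 2 biological replicates grown in DMEM with 10% FBS. The knock-out cells came from puromycin-selected, single picked clones chosen by western blot, and the sources used here do not say whether both knock-out libraries came from 1 clone. Differences between clones and the loss of MET therefore cannot be told apart. The question addressed by the comparison was how the expression profile differed once MET was ablated in cells that depend on it.

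Desmosomes are spot-like junctions that anchor the keratin filaments of neighbouring epithelial cells to each other. Desmogleins and desmocollins are cadherins that bridge the gap between the cells, plakoglobin and the plakophilins are armadillo proteins that bind the cadherin tails, and desmoplakin is the plakin that ties this plaque to keratins. Simple epithelium such as that of the colon uses mainly desmocollin 2 and desmoglein 2, whereas desmocollin 3, desmoglein 3, plakophilin 1 and periplakin are best known from stratified epithelium.

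Total counts were 8429142 and 10286552 for the MET+ libraries and 10137583 and 10228991 for the MET-KO libraries. They were made with a 3′ tag protocol, which yields about one fragment per transcript next to its end whatever its length, and levels can thus be set beside each other between genes. Levels are given as CPM, a gene's counts relative to the library's total, after TMM scaling, and 3 counts correspond to 0.276 to 0.362 CPM, depending on the library. MET mRNA itself was at 337 and 335 CPM in MET+ and at 84.3 and 88.7 CPM in MET-KO cells, a log2 fold change of -1.96 (SE 0.09), while the 673 tested genes of its chromosome 7 had a median of 0.50. The intestinal markers of the line were mostly lower in MET-KO cells, with 6 of 9 called lower and 2 higher, and with CDH17 and CEACAM5 at 0 counts in both MET-KO libraries. The 2 called higher were CDX2, an intestinal transcription factor, and KRT20. CDX2 went from 63.3 and 66.4 to 145 and 123 CPM, and KRT20 from 0 counts in both MET+ libraries to 27 and 28 counts in MET-KO libraries. The summed colon marker level was 7965 and 7923 CPM in MET+ against 6773 and 6008 CPM in MET-KO cells, most of it from KRT18 and KRT8, and the median log2 fold change of the 9 markers was -1.11. KRT8 was not called (log2 fold change -0.19, edgeR adjusted p = 0.144). KRT18 was called lower at -0.30, near the median of -0.32 of the tested genes of its chromosome 12. Of 8 squamous epithelial markers, 4 were tested and all of these 4 were called higher. The summed level of all 8 was 7.0 and 6.25 CPM in MET+ against 117 and 103 CPM in MET-KO cells. Most of the MET-KO sum came from KRT13, with 83.7 and 75.7 CPM. The squamous master regulator TP63 had 1 count in 1 MET+ library and 0 in the others. Keratins of stratified epithelium outside these 8 markers differed in direction. KRT6A (log2 fold change -4.56), KRT16 (-2.25) and KRT10 (-0.36) were called lower and KRT17 (3.67) higher. KRT15 was not called and KRT1 was not tested. Whether these changes in cell character bear on the results given here was not tested.

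Of the 10 genes, 9 were abundant enough to be tested and 8 differed between MET-KO and MET+ cells at an adjusted p below 0.05, against 54.1% of the 13801 genes tested. Among the 8, DSC3, JUP and PPL were higher in MET-KO cells (3 of 9, against 27.2% of all tested genes), and DSC2, DSG2, DSG3, PKP3 and DSP were lower (5 of 9, against 26.9%). PKP2 did not pass the threshold and PKP1 had too few counts. A change of at least 1 on the log2 scale was reached by DSC2, DSG3 and PPL, that is 3 of 9, against 24.3% of all tested genes. In each of the 9 tested genes the 2 libraries of one group lay wholly on one side of the other group, which held for 75.6% of all tested genes. The median log2 fold change was -0.30 over the tested desmosome and plakin genes and 0.01 over all tested genes.

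**Figure D1:**
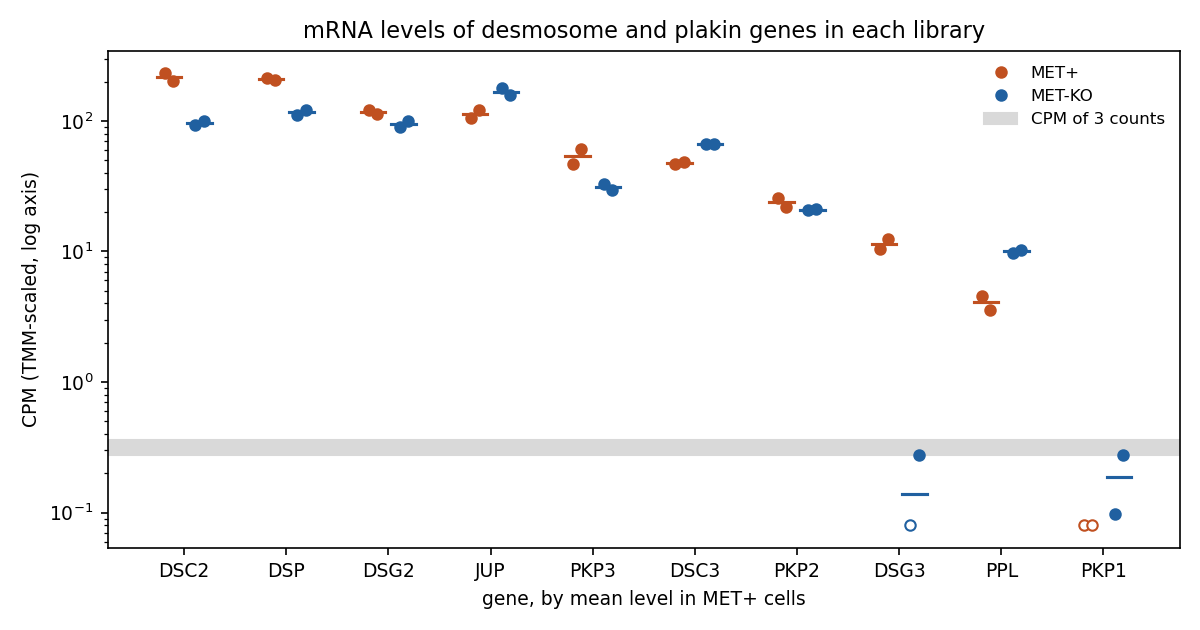
Level of each gene in each library, in TMM-scaled CPM on a log axis, with genes ordered by their mean in MET+ cells. Points are libraries, short lines are group means, open circles at the bottom stand for libraries with 0 counts, and the grey band spans the CPM of 3 counts. DSC2, DSP, DSG2 and PKP3 sit lower and JUP, DSC3 and PPL higher in MET-KO cells. DSG3 drops to 0 counts in MET-KO replicate 1 and to the lower edge of the band in MET-KO replicate 2.

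The 4 desmosomal cadherin genes lie in a cluster of 559 kb on chromosome 18, which holds 7 cadherin genes in all, with DSC1, DSG1 and DSG4 between DSC2 and DSG3. Their promoters are shown first because genes of this cluster moved in opposite directions. Each sequence comes from the 250 bases before the RefSeq start site (build GRCh38.p14), on the strand of the gene. Only the part before the outermost annotated start of the same gene is printed, and transcripts of other genes were not checked. Of the motifs searched, capitals mark those with a match in the printed bases, which were the E-box of SNAI and ZEB factors (CACCTG), the KLF motif (CCACCC) and the SP1 motif (GGGCGG), each on both strands.
DSC2 (chr18:31102523-31102671, minus strand): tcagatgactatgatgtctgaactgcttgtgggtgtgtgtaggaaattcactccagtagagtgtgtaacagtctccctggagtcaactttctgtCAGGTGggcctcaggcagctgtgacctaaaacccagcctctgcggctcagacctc
DSC3 (chr18:31042816-31042992, minus strand): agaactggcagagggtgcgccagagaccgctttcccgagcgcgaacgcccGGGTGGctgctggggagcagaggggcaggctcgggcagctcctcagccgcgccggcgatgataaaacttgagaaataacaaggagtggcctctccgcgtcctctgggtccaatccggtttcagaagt
DSG2 (chr18:31497927-31498042, plus strand): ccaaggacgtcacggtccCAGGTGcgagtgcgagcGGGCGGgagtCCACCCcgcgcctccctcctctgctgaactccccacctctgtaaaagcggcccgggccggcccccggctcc
DSG3 (chr18:31447491-31447740, plus strand): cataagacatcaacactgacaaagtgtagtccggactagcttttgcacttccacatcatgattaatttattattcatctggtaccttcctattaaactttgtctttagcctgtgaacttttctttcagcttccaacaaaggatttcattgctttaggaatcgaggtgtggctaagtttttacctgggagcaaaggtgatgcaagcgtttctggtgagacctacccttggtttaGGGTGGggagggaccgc

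Over the 250 bases searched, the promoters differed in base composition, with a GC content of 60.4% for DSC3, 75.2% for DSG2 and 42.8% for DSG3. DSC2 has 2 start sites in the table, with a GC content of 59.6% at the upstream one, of which part is printed, and 66.8% at the downstream one. The E-box matched at position -156 from the upstream DSC2 start site and at positions -232 and -116 in DSG2, and had no match at the downstream DSC2 start, in DSC3 or in DSG3. It also matched at -178 and -85 in DSP and at -54 and -43 from 1 of the 2 JUP start sites, so that it was found in windows of genes that were lower (DSC2, DSG2, DSP) and of one that was higher (JUP) in MET-KO cells. This motif occurred in 17.5% of the 35114 human promoter windows searched in the same way. The KLF motif matched at -19 from the downstream DSC2 start, at -200 in DSC3, at -205 and -33 in DSG2 and at -17 in DSG3. It also matched in the windows of JUP, PKP1 and DSP, and it occurred in 31.3% of all windows. The SP1 motif matched at -46 from the upstream and at -118 and -36 from the downstream DSC2 start and at -215 and -48 in DSG2, but not in DSC3 or DSG3. It had 7 matches in DSP, also matched in JUP and PKP1, and occurred in 42.6% of all windows. Motifs of GRHL (ACCGGTT), AP-1 (TGANTCA), TEAD (CATTCC) and CDX factors (TTTATG) and the TATA box (TATAAA) had no match in any of these windows. These letters are a description of the sequence and say nothing on binding. PKP2, PKP3 and PPL had no entry in the promoter table.

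DSC2 (ENSG00000134755, chr18:31058840-31102522, GRCh38) encodes desmocollin 2, the desmocollin of simple epithelium. The MET+ libraries held 1916 and 1987 of its reads and the MET-KO libraries 947 and 1076. On the CPM scale these were 231 and 204 in MET+ and 92.7 and 98.9 in MET-KO cells. Each MET-KO library lay below each MET+ library, and the mean fell from 217 ± 19.5 (SD, n = 2) to 95.8 ± 4.40 CPM (SD, n = 2). The log2 fold change was -1.18 (SE 0.10, edgeR adjusted p = 2.09e-12), which placed DSC2 at percentile 7.69 of the fold changes of all tested genes. It was the most abundant of the 10 genes in MET+ cells, where its libraries overlapped with those of DSP, and came after JUP and DSP in MET-KO cells.

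DSC3 (ENSG00000134762, chr18:30990008-31042815) encodes desmocollin 3, which in skin is strongest in the lower layers. It moved the other way from its neighbour DSC2. Its levels were 47.0 and 48.4 CPM in MET+ and 66.6 and 66.0 CPM in MET-KO cells, from 390, 472, 680 and 718 counts. The spread between replicates was small beside the difference, and the log2 fold change was 0.47 (SE 0.11, edgeR adjusted p = 0.000394). DSC2 thus made up 83.1% and 80.8% of the desmocollin counts of the MET+ libraries but 58.2% and 60.0% of those of the MET-KO libraries. The exact (Clopper-Pearson) 95% intervals of these shares reached down to 79.2% in MET+ and up to 62.3% in MET-KO cells, and they cover counting error only. The mean share differed by -22.9 percentage points. DSC2 counts were 4.91 and 4.21 times those of DSC3 in MET+ and 1.39 and 1.5 times in MET-KO cells.

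DSG2 (ENSG00000046604, chr18:31498043-31549008) encodes desmoglein 2, the desmoglein found in all desmosome-bearing epithelia. Its levels were 121 and 113 CPM in MET+ and 90.4 and 99.0 CPM in MET-KO cells. The groups did not overlap, but the log2 fold change of -0.30 (SE 0.10, edgeR adjusted p = 0.0099) was the smallest among the 8 called genes. The call rested on single libraries, with an adjusted p of 0.103 without MET+ replicate 1 and of 0.0857 without MET-KO replicate 1. It was also lost when libraries were scaled by their totals alone, with a log2 fold change of -0.20 and an adjusted p of 0.0973.

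DSG3 (ENSG00000134757, chr18:31447795-31478702) encodes desmoglein 3, known as the autoantigen of pemphigus vulgaris and typical of squamous epithelium. It had 87 and 121 counts in MET+ libraries and 0 and 3 in MET-KO libraries, or 10.5 and 12.4 against 0 and 0.276 CPM. DSG3 was thus present in MET+ cells and at or under the floor of 3 counts in MET-KO cells. Its level over the 2 MET+ libraries was 81.0 times that over the 2 MET-KO libraries, with a 95% counting interval of 27.3 to 396. The edgeR adjusted p was 1.68e-12, and the fitted log2 fold change of -6.21 depends on the prior count because MET-KO cells held almost no reads. It was -5.32 without MET-KO replicate 1 and -9.76 without MET-KO replicate 2, which leaves only the library with 0 counts. With DSG3 near 0, DSG2 provided 92.0% and 90.1% of the counts of this desmoglein pair in MET+ libraries and 100% and 99.7% in MET-KO libraries. DSG3 and DSC3, both genes of stratified epithelium, thus differed in direction.

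The 4 cadherins together stood at 410 and 377 CPM in MET+ and at 249.7 and 264 CPM in MET-KO cells, so that the MET-KO mean was 65.3% of the MET+ mean. The desmocollin sum was 61.1% and the desmoglein sum 73.9% of its MET+ level. Desmocollin transcripts were 2.12 and 2.01 times as abundant as desmoglein transcripts in MET+ and 1.76 and 1.66 times in MET-KO cells.

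**Figure D2:**
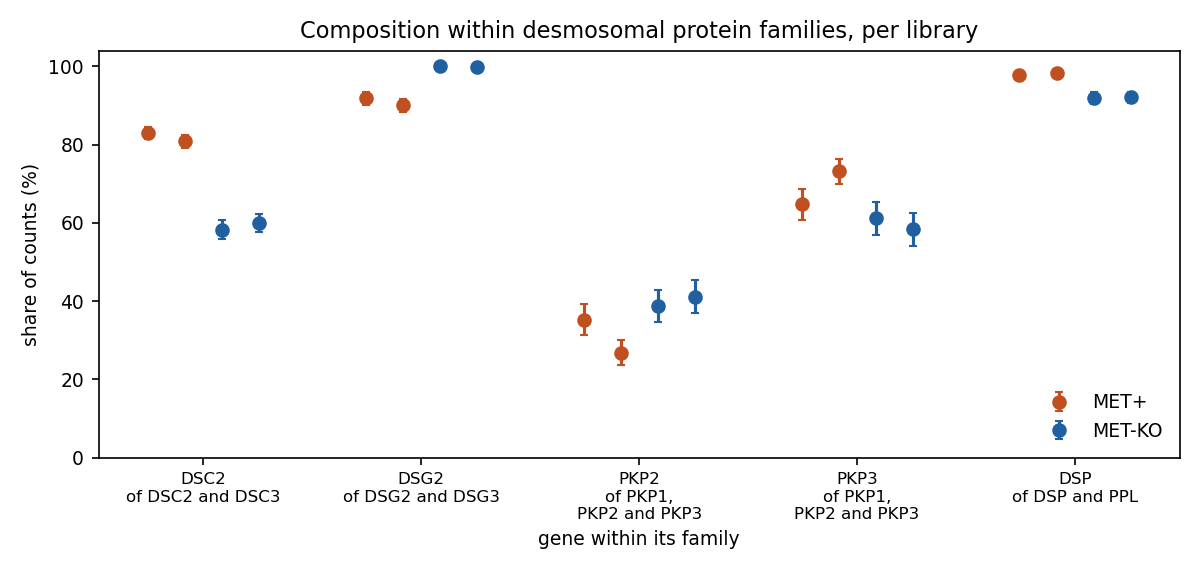
Share of counts that one gene took within its family in each library, in percent, with exact (Clopper-Pearson) 95% intervals for counting error as bars. DSC2 takes 83.1% and 80.8% of desmocollin counts in the MET+ and 58.2% and 60.0% in the MET-KO libraries, whereas the DSP share stays above 91% in each of the 4 libraries.

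The cluster also holds DSG4, the desmoglein of the hair shaft, with 28 and 34 reads in the MET+ and 2 and 9 in the MET-KO libraries, and it was called lower (log2 fold change -2.69, SE 0.54, edgeR adjusted p = 7.14e-05). DSG1 had 0 counts throughout and DSC1 had 2 counts in 1 MET-KO library and 0 in the others. Within 2 Mb on either side of the cluster 7 other genes were tested, of which 3 were called higher and 4 did not pass. Of all tested genes 27.2% were called higher. Those called were B4GALT6, a galactosyltransferase of glycolipid synthesis (log2 fold change 1.72, edgeR adjusted p = 7.41e-07), TRAPPC8, a subunit of a vesicle tethering complex (0.49, adjusted p = 0.0349), and AC009831.1 (1.47, adjusted p = 0.0087). The last of these overlaps TRAPPC8 on the other strand, so their reads could not be told apart with certainty. The median of the 7 neighbours was 0.49 and that of the 218 tested genes of the chromosome was 0.01. Only 1 of the neighbours was called by the DESeq2 Wald test or without MET-KO replicate 2.

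**Figure D3:**
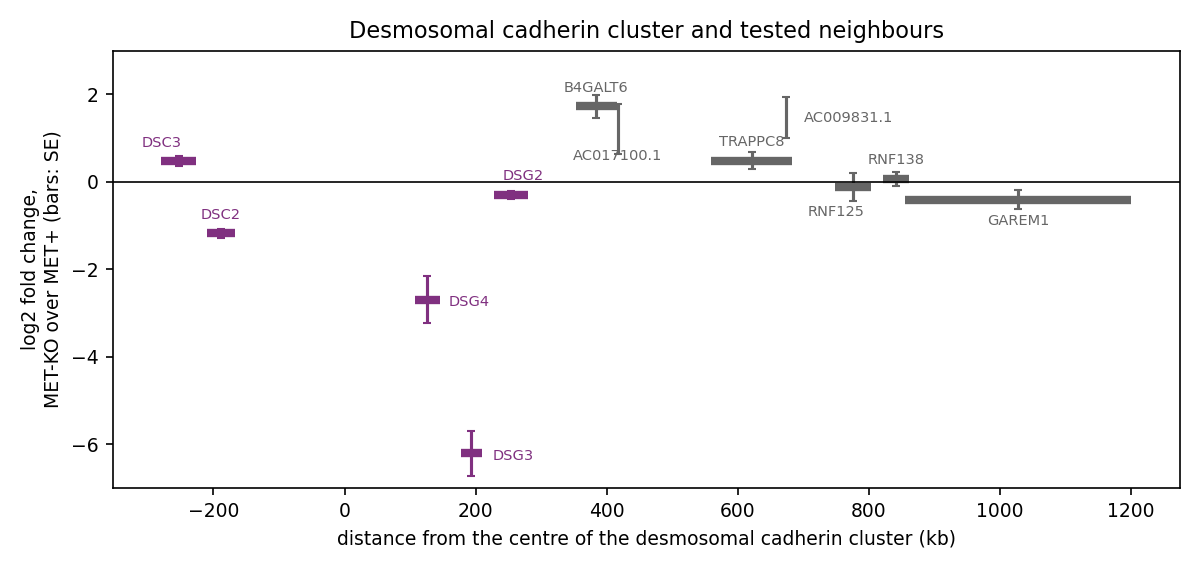
Log2 fold change of the tested desmosomal cadherins (purple) and tested neighbouring genes (grey) against the distance from the centre of the cluster in kb. Horizontal bars span the genes and vertical bars are standard errors. DSC3 lies above 0, DSC2, DSG2, DSG3 and DSG4 lie below it, and the called neighbours B4GALT6, TRAPPC8 and AC009831.1 lie above it. The values of DSG3 and DSG4 rest on few MET-KO counts.

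JUP (ENSG00000173801, chr17:41754604-41786931) encodes plakoglobin, the armadillo protein shared by desmosomes and adherens junctions. It was higher in MET-KO cells, with levels of 105.2 and 121 CPM in MET+ and 178 and 157 CPM in MET-KO cells. The lowest MET-KO library stood well above the highest MET+ library, with a log2 fold change of 0.56 (SE 0.10, edgeR adjusted p = 1.15e-05). JUP passed from the fourth place among the 10 genes in MET+ cells, where its libraries overlapped with those of DSG2, to the first place in MET-KO cells. JUP transcripts were 0.495 and 0.587 times as abundant as those of DSP in MET+ and 1.6 and 1.31 times in MET-KO cells.

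The plakophilins are the plaque proteins that cluster cadherins and recruit desmoplakin. PKP3 (ENSG00000184363, chr11:392614-404908), plakophilin 3, had levels of 46.8 and 60.4 CPM in MET+ and 32.7 and 29.7 CPM in MET-KO cells. It fell by 0.79 on the log2 scale (SE 0.13, edgeR adjusted p = 3.38e-06), although the 2 MET+ libraries differed from each other by nearly as much as the lower one differed from MET-KO cells. PKP2 (ENSG00000057294, chr12:32790745-32896840), the plakophilin of heart and simple epithelium, had levels of 25.5 and 22.0 CPM in MET+ and 20.7 and 21.0 CPM after the knock-out. A log2 fold change of -0.19 (SE 0.15, edgeR adjusted p = 0.308) did not pass the threshold, and the median of the 762 tested genes of chromosome 12 was -0.32. An intronic transcript on the PKP2 strand, AC087588.2, was counted separately with 11, 8, 5 and 3 counts.

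PKP1 (ENSG00000081277, chr1:201283452-201332993), the plakophilin of stratified epithelium, had 0 counts in both MET+ and 1 and 3 counts in the MET-KO libraries, at or under the floor, so that no fold change is given. A count of 0 allows up to 0.362 and 0.307 CPM in the 2 MET+ libraries. The 3 plakophilins summed to 72.3 and 82.4 CPM in MET+ and to 53.4 and 50.9 CPM in MET-KO cells, which is 67.5% of the control mean. PKP3 took 64.8% and 73.3% of plakophilin counts in MET+ and 61.2% and 58.3% in MET-KO libraries, and the interval of the first MET+ library overlapped with those of both MET-KO libraries.

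DSP (ENSG00000096696, chr6:7541575-7586717) encodes desmoplakin, the obligate link between the desmosomal plaque and keratins. Its levels were 213 and 207 CPM in MET+ and 112 and 120 CPM in MET-KO cells. The replicates lay close together, the groups were far apart, and the log2 fold change was -0.85 (SE 0.09, edgeR adjusted p = 1.62e-09). Even so DSP remained among the most abundant of the 10 genes, second in both groups. DSP lies at percentile 95.3 of all tested genes by level in MET+ and at percentile 91.3 in MET-KO cells.

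PPL (ENSG00000118898, chr16:4882507-4960741) encodes periplakin, a plakin that links the cornified envelope and desmosomal plaque to intermediate filaments. It was the least abundant gene tested in MET+ cells, with 38 and 35 counts or 4.58 and 3.59 CPM. In MET-KO libraries it had 100 and 111 counts or 9.79 and 10.2 CPM, and the groups did not overlap. The log2 fold change was 1.30 (SE 0.26, edgeR adjusted p = 7.68e-05). SEC14L5 overlaps PPL on the opposite strand and had 0, 0, 9 and 12 counts in the same library order, and since the strand setting of the counting is not given in the sources used here, reads of the shared stretch could not be assigned with certainty. DSP made up 97.9% and 98.3% of the counts of this plakin pair in MET+ and 91.9% and 92.2% in MET-KO libraries.

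All 10 genes together gave 804 and 791 CPM in MET+ and 603 and 602 CPM in MET-KO cells, so that the MET-KO mean was 75.6% of the MET+ mean. The order of the genes by level changed with it. In MET+ cells it ran DSC2, DSP, DSG2, JUP, PKP3, DSC3, PKP2, DSG3, PPL and PKP1, and the libraries of DSC2 and DSP, of DSG2 and JUP, and of PKP3 and DSC3 overlapped. In MET-KO cells it ran JUP, DSP, DSC2, DSG2, DSC3, PKP3, PKP2, PPL, PKP1 and DSG3, and of the neighbours above the floor only DSC2 and DSG2 overlapped. Each shift in composition reported above was seen in both libraries of each group, but the exact 2-sided permutation test of a share over 2 against 2 libraries cannot give a p below 0.333, which is the value it gave for each share. In these bulk libraries fewer cells that express a gene and less RNA per cell cannot be told apart.

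Beyond the 10 genes, PKP4, a plakophilin relative that also sits at adherens junctions, was higher in MET-KO cells. Its levels were 49.9 and 49.1 CPM in MET+ and 127 and 124 CPM in MET-KO cells, with a log2 fold change of 1.34 (SE 0.10, edgeR adjusted p = 3.31e-13). When PKP4 was added, the plakophilin sum went from a mean of 127 to 177 CPM, the opposite direction from PKP1 to PKP3 alone. PERP, a tetraspan membrane protein of desmosomes, was lower, from 617 and 552 to 449 and 419 CPM (log2 fold change -0.43, SE 0.09, edgeR adjusted p = 0.000178). CDSN, the corneodesmosome glycoprotein, had 1 count in each MET+ library and 0 in MET-KO libraries. Of these 6 other desmosome genes, DSC1, DSG1, DSG4, PKP4, PERP and CDSN, 3 were tested, with 1 called higher and 2 lower. The share of all tested genes was 27.2% higher and 26.9% lower.

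Among 5 other plakins and the periplakin partner kazrin, 3 were called higher, 1 lower and 2 did not pass the threshold. This compares with 27.2% higher and 26.9% lower over all tested genes. Envoplakin, encoded by EVPL, is the partner of periplakin at the cornified envelope, and its mRNA moved in the opposite direction from that of PPL. EVPL stood at 27.0 and 35.5 CPM in MET+ and at 8.71 and 7.72 CPM in MET-KO cells (log2 fold change -1.93, SE 0.18, edgeR adjusted p = 3.30e-11). EVPL counts were 5.89 and 9.89 times those of PPL in MET+ and 0.89 and 0.757 times in MET-KO libraries. PLEC, which encodes the broad cytolinker plectin, was higher with a log2 fold change of 0.60 (edgeR adjusted p = 8.55e-06), and DST, which encodes dystonin, a plakin with hemidesmosomal isoforms, with 0.49 (edgeR adjusted p = 0.00235). EPPK1, encoding epiplakin, a keratin-binding plakin, had 1 and 0 reads in the MET+ and 34 and 43 in the MET-KO libraries. Its level in MET-KO cells was 65.9 times that in MET+ cells, with a 95% counting interval of 11.5 to 2636. The microtubule and actin linker MACF1 had a log2 fold change of 0.19 (edgeR adjusted p = 0.14) and kazrin (KAZN) of -0.13 (edgeR adjusted p = 0.699).

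**Figure D4:**
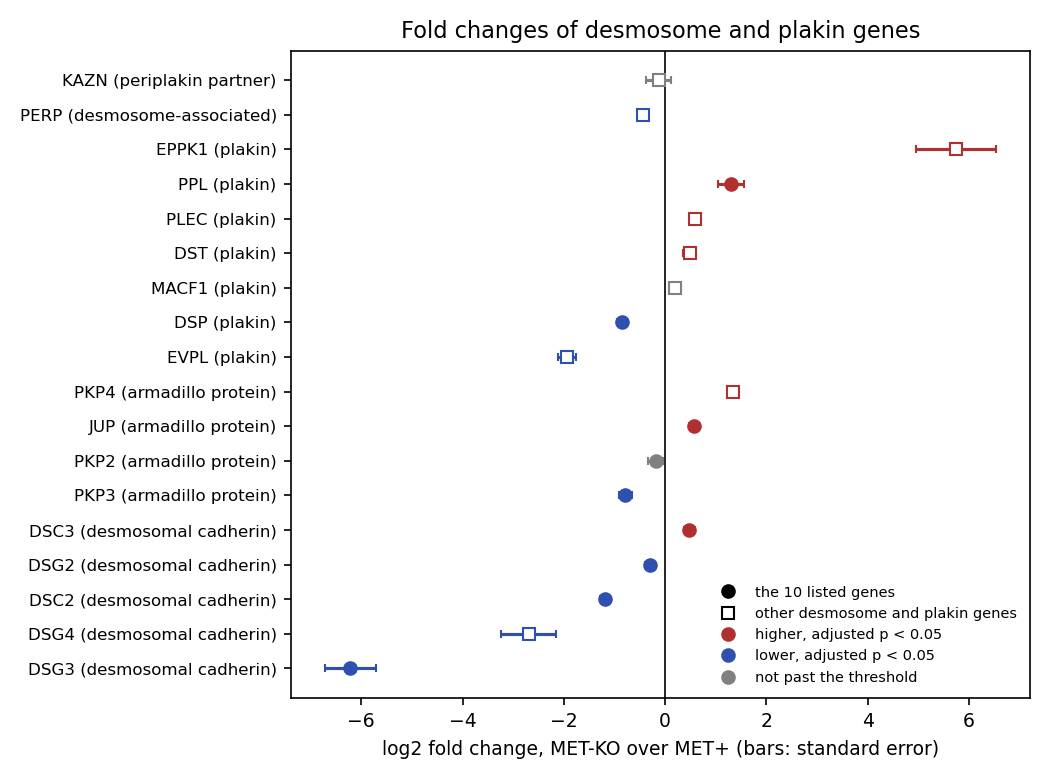
Log2 fold change of MET-KO over MET+ cells with its standard error for the tested genes among the 10 (filled circles) and for other desmosome and plakin genes (open squares), coloured by direction of call. Armadillo proteins and plakins fall on both sides of 0, and of the cadherins only DSC3 lies above it. The values of DSG3 and EPPK1 depend on the prior count because 1 group held almost no reads.

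The keratins, to which desmosomes anchor, changed in both directions. Of 15 keratins of simple and stratified epithelium 14 were tested, with 6 called higher, 5 lower and 3 not passing, and a median log2 fold change of -0.03. Over all tested genes 27.2% were called higher and 26.9% lower. The count of lower keratins was 3 without MET+ replicate 2 and also without MET-KO replicate 2, and the counts were 3 higher and 3 lower when at least 10 counts were required in every library. KRT13, a keratin of mucosal stratified epithelium, went from 1.57 and 1.74 to 83.7 and 75.7 CPM (log2 fold change 5.57, edgeR adjusted p = 3.93e-23), and its partner KRT4 from 2.9 and 2.36 to 20.7 and 17.6 CPM (2.87, edgeR adjusted p = 4.36e-12). KRT6A, a keratin of stressed and appendage epithelium, went from 12.8 and 16.7 to 0.979 and 0.276 CPM (-4.56, edgeR adjusted p = 1.10e-12). None of 10 cornified envelope genes reached the level needed for testing by edgeR, and 5 of them had 0 counts in each of the 4 libraries. Without MET+ replicate 1 or without MET+ replicate 2, 1 of these genes was called higher, and 2 were called higher when no filter was applied. The summed level of these 10 genes was 1.57 and 0.512 CPM in MET+ and 1.86 and 2.94 CPM in MET-KO cells.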

How the data were processed

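QuantSeq 3′ libraries of 2 MET+ and 2 MET-KO LoVo cultures were sequenced. The deposited values are raw counts per gene, made by the authors from trimmed reads aligned to GRCh38 (submitters' notes: cutadapt 1.16, STAR 2.5.4a, featureCounts 1.6.2). The strand setting is not given in the sources used here. The 99 spike-in rows held 0 counts and were left out. Genes and positions follow GENCODE 29 names.

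Genes were filtered with filterByExpr, scaled by TMM and compared with edgeR 4.0.16 (R 4.3.3), using the quasi-likelihood test with group as the sole term and Benjamini-Hochberg adjustment over all 13801 tested genes. Called means an adjusted p under 0.05. The standard error (SE) was not estimated by the fit itself. It is the absolute log2 fold change divided by the square root of the F statistic of the quasi-likelihood test. The test was checked on simulated counts in which few genes changed. That setting differs from these data, in which 54.1% of the tested genes were called. Alternatives included DESeq2 1.42.0. Its standard errors were larger for each of the 9 tested desmosome and plakin genes, for example 0.36 against 0.26 for PPL. Folds against a group at 0 were computed with a floor of 3 counts per library. Replicates differed beyond sampling noise (chi-square per degree of freedom 5.45 and 4.86). Promoter sequences are from RefSeq. In the last 300 bases of each of the 10 genes, no run of 50 bases was shared with another gene.

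The genes and lists were chosen with earlier results of these data known. Named were the 10 genes, MET, all other desmosome and plakin genes, called neighbours of the cadherin cluster, and from each other list up to 5 called genes that changed by 1 log2 unit or more and reached 10 CPM in 1 group. CDX2, ELF3, KLF4, KRT8, KRT18, KRT20 and TP63 were named in addition. So were KRT1, KRT10, KRT15, KRT16, KRT17, GRHL1, PRKCA, ADAM10, ADAM15, SNAI1, SNAI2 and ZEB2.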

Additional observations from a re-analysis of the deposited data

How the results depend on the processing

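The count of 8 called desmosome and plakin genes was 7 when libraries were scaled by their totals alone or when at least 10 counts were required in every library, the latter because DSG3 was then not tested. It was 8 with DESeq2 size factors, with the DESeq2 Wald test and without a filter. It ranged from 7 to 8 when 1 library was left out, and it was 3 when a change of 1 log2 unit or more was demanded as well. DSG2 was the sole gene of the 10 whose call was lost, with a log2 fold change of -0.20 under scaling by totals, -0.25 without MET+ replicate 1 and -0.24 without MET-KO replicate 1. Scaling by totals moved the median of all genes from 0.01 to 0.11. The 3 called neighbours of the cadherin cluster were 1 by the DESeq2 Wald test and ranged from 1 to 3 when 1 library was left out. The cause of these changes was not tested.

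The log2 fold change of DSC2 ranged from -1.28 to -1.08 over the 10 alternatives, of DSP from -0.91 to -0.75, of PKP3 from -0.95 to -0.59, of DSC3 from 0.46 to 0.57, of JUP from 0.47 to 0.66 and of PPL from 1.12 to 1.48. PKP2 ranged from -0.30 to -0.08 and was called in none of them. The fitted value of DSG3 ranged from -9.76 to -5.32 over the 9 alternatives that tested it. Deviations of replicates with the same number were hardly correlated over genes (-0.0509). With 2 libraries per group this cannot show whether samples were handled in pairs. With the replicate block 8 of the genes were called. With 2 libraries per group, DSG3 and PKP1 in MET-KO cells were at the limit that depth sets.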

Other observations

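Adherens junctions share plakoglobin with the desmosome. Genes listed for these junctions, together with the cadherin CDH17, also moved in both directions in MET-KO cells. Of 11 listed 10 were tested, with 3 called higher and 5 lower by edgeR and a median log2 fold change of -0.26. Over all tested genes the shares were 27.2% higher and 26.9% lower. CDH17, liver-intestine cadherin, had 25.6 and 23.5 CPM in MET+ cells and 0 counts in both MET-KO libraries, at least 86.1-fold lower against a floor of 3 counts per library. AFDN, which encodes afadin, the nectin anchor to actin, went from 88.3 and 94.9 to 29.1 and 31.7 CPM (log2 fold change -1.59, edgeR adjusted p = 4.16e-14). NECTIN1, a nectin, went from 20.02 and 21.2 to 45.2 and 48.7 CPM (1.19, edgeR adjusted p = 1.88e-09).

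Of 20 regulators of epithelial and junction genes 15 were tested, with 7 called higher and 5 lower and a median log2 fold change of -0.03. Beside these counts stand 27.2% higher and 26.9% lower over all tested genes. The list pools factors that favour epithelial genes, repressors of such genes and enzymes. Among the factors that favour epithelial genes, KLF5, GRHL1, GRHL2, GRHL3 and OVOL1 were called lower and CDX2, KLF4 and ELF3 higher. The others called higher were the repressor ZEB1 and the enzymes PRKCA, ADAM10 and ADAM15. GRHL2, a grainyhead factor of epithelial identity, had 145 and 154 counts in MET+ and 0 in both MET-KO libraries, at least 58.4-fold lower against the same floor. OVOL1, a zinc-finger repressor that acts in epithelial differentiation, had 117 and 114 counts in MET+ and 0 and 4 in MET-KO libraries, a ratio of 67.5 with a 95% counting interval of 26.0 to 249.8. KLF5, a Krüppel-like factor of intestinal crypts, went from 603 and 543 to 77.7 and 66.6 CPM (log2 fold change -2.99, edgeR adjusted p = 1.06e-22), and GRHL3 from 13.0 and 11.4 to 3.23 and 2.76 CPM (-2.02, edgeR adjusted p = 5.80e-08). ZEB1, a repressor that binds the E-box searched in the promoters, went from 1.33 and 1.64 to 9.40 and 10.9 CPM (2.76, edgeR adjusted p = 6.16e-09). Of the other factors of this E-box, SNAI1 had 12.5 and 9.32 CPM in MET+ and 8.81 and 6.71 CPM in MET-KO cells. It was not called (-0.49, edgeR adjusted p = 0.0702), and ZEB2 and SNAI2 had at most 1 count per library. KLF4, another Krüppel-like factor, moved opposite to KLF5, from 23.6 and 20.7 to 70.6 and 75.9 CPM (1.73, edgeR adjusted p = 4.58e-14). CDX2 (1.04, edgeR adjusted p = 1.93e-10) and ELF3 (0.65, edgeR adjusted p = 3.89e-06) were higher as well.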
